A study of Mus musculus with 6 samples.

Results

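The 10 genes described here encode factors that sense collided ribosomes, split them and clear the unfinished protein. They were chosen by name and identifier for their role, with earlier results of these data known, and all 10 were listed among the 8941 genes of the liver disome tables. In the order of their roles they were Gcn1 (ENSMUSG00000041638), Eif2ak4 (ENSMUSG00000005102), Zfp598 (ENSMUSG00000041130), Edf1 (ENSMUSG00000015092), Ascc3 (ENSMUSG00000038774), Pelo (ENSMUSG00000042275), Hbs1l (ENSMUSG00000019977), Gtpbp2 (ENSMUSG00000023952), Nemf (ENSMUSG00000020982) and Ltn1 (ENSMUSG00000052299). The symbols come from the definition of the gene set, because the tables hold identifiers only. The RefSeq gene table places Eif2ak4 and Edf1 on chromosome 2, Gcn1 on 5, Ascc3 and Hbs1l on 10, Nemf on 12, Pelo on 13, Ltn1 on 16, and Zfp598 and Gtpbp2 on 17.

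Disome profiling sequences the stretches of messenger RNA that a pair of stacked ribosomes shields from nuclease, and so reads where one ribosome has run into another. All libraries came from livers of male C57BL/6JRj mice aged 11 to 12 weeks and kept in 12 h light and 12 h dark. The labels name no mutation and no treatment of the mice, and cycloheximide, which halts ribosomes, was in the lysis buffer. The groups were zeitgeber time 0 (ZT0, lights on), ZT2 and ZT12 (lights off), with 2 libraries each, and each library was made from 2 pooled livers, so a value is a mean over a pair of animals.

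When a ribosome stalls, the one behind it runs into it, and the joint surface of the pair is what the sensors of the pathway read. ZNF598 marks the small subunit with ubiquitin, EDF1 binds at the collision, and GCN1 carries the signal to the kinase GCN2. The stalled ribosome is then pulled apart, the message is degraded, and the nascent chain that stays on the large subunit is tagged for the proteasome. The values below are not the activity of these factors: they count disome footprints on the factors' own messages. Total RNA and single-ribosome footprints were not analysed here, so a level was not corrected for the amount or the translation of each message. In whole liver, fewer cells of a type and less RNA per cell cannot be told apart.

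Depth was 6346387 to 12322651 recovered reads per library, highest in the ZT12 pair. Genes listed at 0 numbered 97 and 250 in the ZT2 libraries, against 4 in each ZT0 library and 4 and 52 in the ZT12 libraries. Across genes, which are no independent replicates, the pair of libraries correlated at r of 0.989 for ZT0, 0.948 for ZT2 and 0.976 for ZT12. The liver label was not checked against cell type markers, because the marker symbols could not be matched to the identifiers.

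The 10 genes took a small and similar share of each library. They received 0.0387% and 0.0378% of all reads in the ZT0 libraries, 0.0416% and 0.0434% in those of ZT2, and 0.0425% and 0.0446% in those of ZT12. Edf1 alone held 28.5% to 44.6% of those reads, although its coding length was the shortest of the set at 444 nucleotides. In every library 5 or 6 of the 10 lay under that library's median gene, which was 7.21 to 7.55 RPKM (reads per kilobase, scaled by library).

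**Figure D1:**
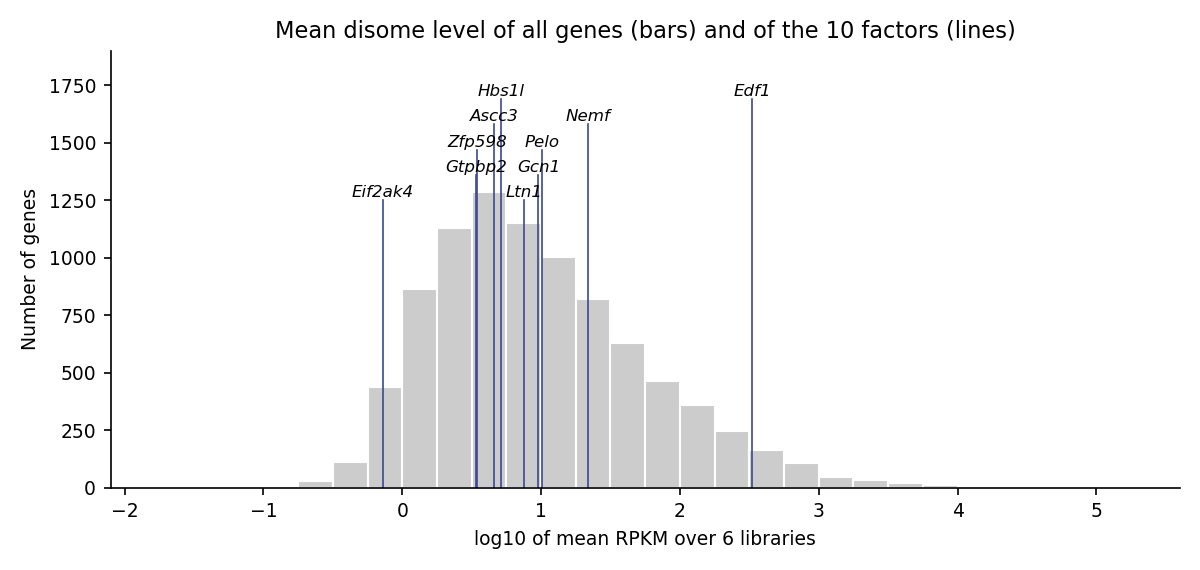
Histogram of the mean disome level over 6 libraries (RPKM, log axis) for all 8941 listed genes (y axis, number of genes), with a vertical line for each of the 10 factors. Edf1 lies far to the right at 333 RPKM, Eif2ak4 in the left tail at 0.723 RPKM, and the others between 3.39 and 21.6 RPKM.

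Ranked by mean RPKM over 6 libraries, the order was Edf1, Nemf, Pelo, Gcn1, Ltn1, Hbs1l, Ascc3, Zfp598, Gtpbp2 and Eif2ak4. Edf1 averaged 333 ± 60.6 RPKM (SD, n = 6), a level above that of 95.8% of listed genes. Nemf followed at 21.6 ± 5.29 RPKM. Pelo, Gcn1 and Ltn1 averaged 10.2 ± 1.58, 9.58 ± 1.98 and 7.52 ± 1.63 RPKM. Hbs1l, Ascc3, Zfp598 and Gtpbp2 averaged 5.17 ± 0.976, 4.61 ± 0.986, 3.45 ± 0.546 and 3.39 ± 1.35 RPKM. Eif2ak4 was lowest at 0.723 ± 0.350 RPKM, with only 3.09% of genes below it.

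Only 3 of the 9 neighbouring pairs in this order were apart over all 6 libraries. Every Edf1 value lay above every Nemf value, every Nemf value above every Pelo value, and every Gtpbp2 value above every Eif2ak4 value. The ranges of the other 6 pairs overlapped. Pelo was above Gcn1 in 2 of 6 libraries although its mean was higher, and Hbs1l above Ascc3 likewise in 2 of 6.

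**Figure D2:**
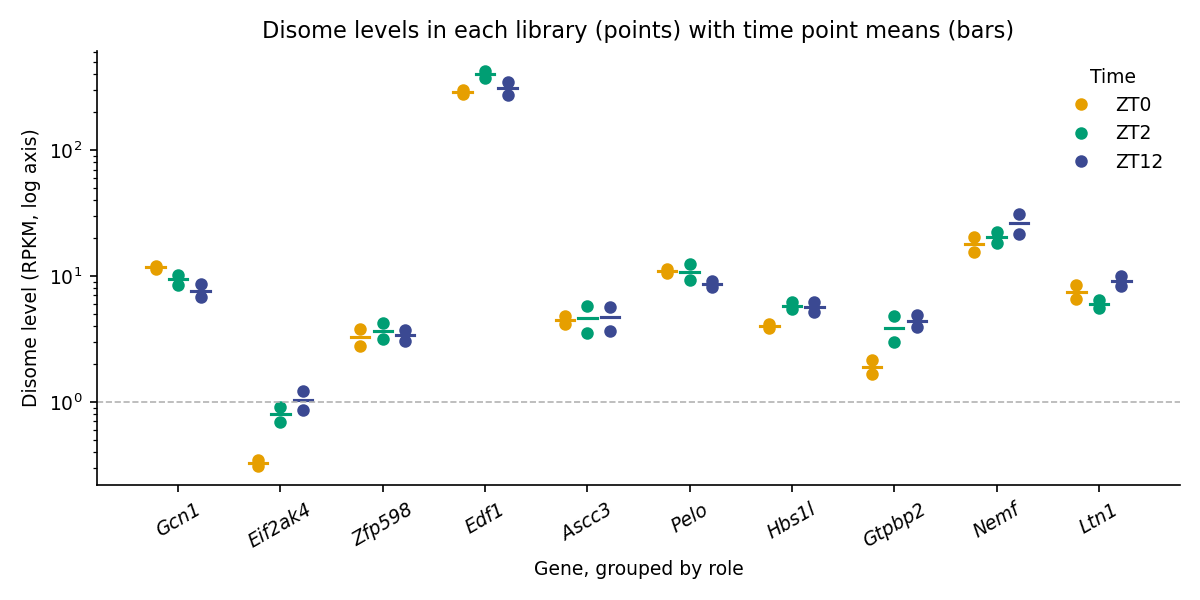
Disome level (RPKM, log axis) of each of the 10 factors in each of the 6 libraries, at ZT0, ZT2 and ZT12, with points for libraries and a bar for the mean of each pair. Edf1 sits at or above 276 RPKM in all 6 libraries and Eif2ak4 at or below 1.22 RPKM in all 6.

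No member passed the test in any comparison between time points. The test was limma on log2(RPKM + 1), with p-values adjusted by Benjamini-Hochberg over the 8355 genes whose mean reached 1 RPKM. Of the 10 factors, 9 passed that filter and Eif2ak4 did not. At an adjusted p under 0.05, 0 of 9 were called for ZT2 against ZT0, where 0.0239% of all tested genes were called. For ZT12 against ZT0 it was 0 of 9 beside 0.946%, for ZT12 against ZT2 0 of 9 beside 2.06%, and for any difference among the 3 times (moderated F) 0 of 9 beside 1.26%. Beside shares this low, 0 of 9 says little about the members. At an unadjusted p under 0.05 the members numbered 2, 1, 0 and 1 of 9 in the same order of comparisons, beside 13.7%, 14.5%, 19.2% and 18.6% of all tested genes, so these counts too were near the background. They were Edf1 and Gtpbp2 for ZT2 against ZT0, and Gtpbp2 for ZT12 against ZT0 and in the F test. The number of genes called depended on the libraries in the fit: for ZT12 against ZT0 it was 79 over all libraries and 282 with only the 4 libraries compared. No member was called by limma in either fit, nor by voom on the recovered reads.

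The number of members whose libraries did not overlap between times was also near the background. For ZT2 against ZT0, both libraries lay higher for Hbs1l, Edf1 and Gtpbp2 (3 of 9, beside 21.5% of tested genes) and lower for Gcn1 and Ltn1 (2 of 9, beside 24.9%). For ZT12 against ZT0, both lay higher for Hbs1l, Nemf and Gtpbp2 (3 of 9, beside 26.6%) and lower for Gcn1 and Pelo (2 of 9, beside 27.8%). These comparisons share the ZT0 libraries. For ZT12 against ZT2, both lay higher for Ltn1 (1 of 9, beside 23.6%) and lower for Pelo and Edf1 (2 of 9, beside 22.3%). For some members below, the pair of a time is said to lie apart from all other libraries. The share of all genes with such a pair was not computed, so this is description only. In the fit with no filter, the median log2 change of all 10 factors was 0.15 between ZT2 and ZT0, 0.18 between ZT12 and ZT0 and -0.01 between ZT12 and ZT2. Over all 8941 genes the medians were -0.04, 0.00 and 0.03.

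**Figure D3:**
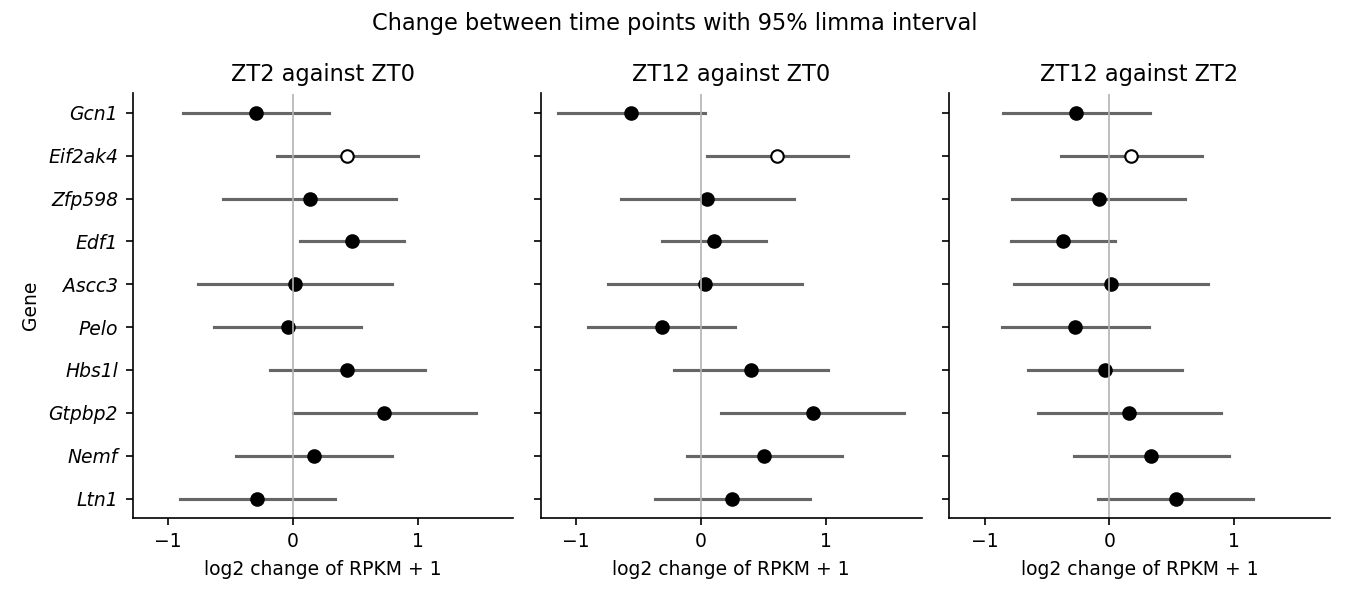
Log2 change on the log2(RPKM + 1) scale with 95% confidence intervals from limma for each factor, in the 3 comparisons between time points. The white points for Eif2ak4 come from the fit with no filter. The estimates run from -0.56 for Gcn1 to 0.90 for Gtpbp2, both for ZT12 against ZT0, and most intervals include 0.

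Gtpbp2, Edf1 and Gcn1 had the smallest unadjusted p-values among the filtered members, and their promoter sequences are shown for that reason. Each runs from 250 bases before to 50 bases after the RefSeq gene start on GRCm38.p6, all on the plus strand. They are chr17:46160782-46161081 for Gtpbp2, chr2:25557597-25557896 for Edf1 and chr5:115565013-115565312 for Gcn1. Capitals mark matches to the ETS-type letters CCGGAAG or the GC box GGGCGG on either strand, so a GC box on the minus strand reads CCGCCC.
Gtpbp2: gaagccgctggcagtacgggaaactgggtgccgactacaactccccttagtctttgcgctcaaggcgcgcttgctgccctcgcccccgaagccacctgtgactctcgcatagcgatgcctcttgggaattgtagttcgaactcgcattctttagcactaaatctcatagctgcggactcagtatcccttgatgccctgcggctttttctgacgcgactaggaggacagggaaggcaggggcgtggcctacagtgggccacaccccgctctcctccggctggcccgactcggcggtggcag
Edf1: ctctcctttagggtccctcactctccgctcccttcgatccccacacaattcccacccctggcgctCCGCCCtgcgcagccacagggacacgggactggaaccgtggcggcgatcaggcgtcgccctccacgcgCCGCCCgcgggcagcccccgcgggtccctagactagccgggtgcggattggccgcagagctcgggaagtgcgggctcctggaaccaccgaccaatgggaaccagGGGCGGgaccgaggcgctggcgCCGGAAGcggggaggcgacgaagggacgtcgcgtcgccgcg
Gcn1: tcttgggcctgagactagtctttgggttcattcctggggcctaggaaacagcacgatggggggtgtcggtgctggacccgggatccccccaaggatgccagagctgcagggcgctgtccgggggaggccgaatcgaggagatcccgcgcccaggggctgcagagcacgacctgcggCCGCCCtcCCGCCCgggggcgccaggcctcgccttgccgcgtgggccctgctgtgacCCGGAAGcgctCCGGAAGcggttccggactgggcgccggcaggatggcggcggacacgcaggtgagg
Gcn1 carried 2 ETS-type and 2 GC box matches, Edf1 carried 1 and 3, and Gtpbp2 carried none of either in its window. All 10 members had a RefSeq promoter, in 11 windows because Eif2ak4 has 2. The ETS-type letters stood in 2 of the 11 windows, those of Edf1 and Gcn1, and in 8.86% of all 32851 windows of the same length. A GC box stood in 6 of the 11 (Ascc3, Edf1, Eif2ak4, Gcn1, Hbs1l and Zfp598) and in 35.7% of all windows. Both motifs were added after the sequences had been read. All windows include those of genes outside the disome data, so these shares are not a matched background. The E-box CACGTG bound by CLOCK and BMAL1, the D-box TTATGNAA and the core TGATGNAA of the response element of ATF4 and CHOP were found in 0 of the 11, against 7.15%, 3.39% and 3.97% of all windows. Beside shares this low, 0 of 11 says little about the members. The motifs searched did not overlap one another in their letters, apart from TTATGNAA and TGATGNAA, which differ at 1 position. None of these matches shows a factor bound there, and a window without one says only that those letters are missing from it.

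Among the sensors, Gcn1 had its highest levels at ZT0 and its lowest at ZT12. GCN1 is a very large scaffold protein that contacts both ribosomes of a collided pair in yeast and is needed for activation of GCN2. With a coding length of 8013 nucleotides, it collected 422 to 847 reads per library. At ZT0 its libraries read 11.4 and 12.0 RPKM, at ZT2 8.53 and 10.2, and at ZT12 6.76 and 8.56. The ZT0 libraries lay above all 4 others, while the ZT2 and ZT12 values overlapped only at their edges, 8.53 RPKM in ZT2 replicate 1 and 8.56 RPKM in ZT12 replicate 2. Mean level at ZT12 was 0.655 times that at ZT0, a log2 change of -0.56 ± 0.25 (SE; 95% interval -1.15 to 0.03; limma adjusted p = 0.367, unadjusted p = 0.0595). For ZT2 against ZT0 the log2 change was -0.29 ± 0.25 (SE; limma adjusted p = 0.632), with -0.18 without ZT2 replicate 1. The 6 values of Gcn1 ran most closely with those of ENSMUSG00000053460 (r = 0.988) and ENSMUSG00000017747 (r = 0.986), on the log2(RPKM + 1) scale over 6 libraries. With 6 libraries such values arise easily: 25 genes had r over 0.95 with Gcn1.

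Eif2ak4 encodes GCN2, the kinase that phosphorylates the initiation factor eIF2 alpha and so lowers initiation across the cell. Its messages carried very few disome footprints. The gene, with a coding length of 4110 nucleotides, received 9 and 11 reads in the ZT0 libraries, 23 and 22 in those of ZT2, and 46 and 62 in those of ZT12. At ZT0 this came to 0.311 and 0.347 RPKM, at ZT2 0.907 and 0.694, and at ZT12 0.854 and 1.22. Both ZT0 libraries were below all 4 others. The exact 95% Poisson interval of the 9 reads of ZT0 replicate 1 was 4.12 to 17.1 reads, and that of the 62 reads of ZT12 replicate 2 was 47.5 to 79.5, counting error only. Mean level at ZT12 was 3.16 times that at ZT0, and at ZT2 2.43 times that at ZT0. In the limma fit with no filter, the log2(RPKM + 1) change was 0.61 ± 0.24 for ZT12 against ZT0 (SE; adjusted p = 0.316, unadjusted p = 0.0373). This scale compresses low values: by voom on the recovered reads the log2 change was 1.57 ± 0.78 (SE; limma adjusted p = 0.349). For ZT2 against ZT0 the log2(RPKM + 1) change was 0.44 ± 0.24 (SE; limma adjusted p = 0.472).

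Zfp598 encodes the ubiquitin ligase that recognises collided ribosomes and modifies proteins of the small subunit. At ZT0 it stood at 2.76 and 3.76 RPKM, at ZT2 4.22 and 3.14, and at ZT12 3.73 and 3.06. The 3 pairs overlapped one another. Its estimated log2 changes were 0.14 at ZT2 over ZT0, 0.05 at ZT12 over ZT0 and -0.09 at ZT12 over ZT2. The lowest limma adjusted p among these was 0.864. The 95% interval for ZT12 against ZT0 was -0.64 to 0.75, so differences within that range were not excluded. A larger difference could also have missed the adjusted threshold, as the log2 change of 0.90 of Gtpbp2 for ZT12 against ZT0 did.

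Edf1 encodes a small protein that binds collided ribosomes and helps recruit the repressors GIGYF2 and EIF4E2 to the message. It had by far the highest level of the set, and its ZT2 libraries were its highest. At ZT0 the libraries read 278 and 298 RPKM, at ZT2 429 and 372, and at ZT12 346 and 276, from 869 to 2013 reads per library. Both ZT2 values lay above the other 4, and the ZT12 pair straddled the ZT0 pair. At ZT2 the mean level was 1.39 times that at ZT0, a log2 change of 0.47 ± 0.18 (SE; 95% interval 0.05 to 0.89; limma adjusted p = 0.324, unadjusted p = 0.0316). At ZT12 the mean was 0.777 times that at ZT2, a log2 change of -0.37 ± 0.18 (SE; limma adjusted p = 0.310). That change was -0.21 without ZT12 replicate 2 and -0.53 without ZT12 replicate 1. The replicates themselves differed beyond counting error at ZT2 and ZT12, where replicate 2 was 0.868 and 0.797 times replicate 1.

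Ascc3 encodes the helicase of the complex that pulls apart the leading collided ribosome. At ZT0 its level was 4.84 and 4.15 RPKM, at ZT2 3.54 and 5.78, and at ZT12 3.67 and 5.70. The time points had nearly equal means of 4.50, 4.66 and 4.68 RPKM, while replicate 2 was 1.63 times replicate 1 at ZT2 and 1.55 times at ZT12. Both replicate ratios were beyond counting error, so the spread within a time exceeded every difference between times. The largest estimated log2 change was 0.03, for ZT12 against ZT0, with a 95% interval of -0.75 to 0.81 (limma adjusted p = 0.982).

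The rescue factors Pelo, Hbs1l and Gtpbp2 have related roles. Pelota enters the empty decoding site of a stalled ribosome and, with the GTPase HBS1L, prepares it for splitting. GTPBP2 is a GTPase related to HBS1L, and mice that lack it and also carry a defective brain arginine tRNA show stalled ribosomes and neurodegeneration. At ZT0 Pelo read 10.6 and 11.5 RPKM, at ZT2 12.3 and 9.21, and at ZT12 9.12 and 8.20. Both ZT12 libraries were below the other 4, the nearest being ZT2 replicate 2. The log2 change was -0.31 ± 0.25 at ZT12 over ZT0 (SE; limma adjusted p = 0.614) and -0.27 ± 0.25 at ZT12 over ZT2 (SE; limma adjusted p = 0.599). The second of these came to -0.081 when ZT2 replicate 1 was left out, and to -0.47 when ZT2 replicate 2 was. Pelo overlaps the coding gene Itga1 in the RefSeq table, and whether counting used strand is not given in the sources used here, so reads of the 2 genes could have been shared. The genes running closest to Pelo over 6 libraries were ENSMUSG00000049354 (r = 0.995) and ENSMUSG00000036093 (r = 0.983), among 42 genes with r over 0.95.

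Hbs1l stood lower at ZT0 than at either later time. At ZT0 its values were 4.19 and 3.87 RPKM, at ZT2 6.19 and 5.44, and at ZT12 6.16 and 5.16. The ZT0 pair did not overlap the other libraries, and the ZT2 and ZT12 pairs covered almost the same range. The mean at ZT2 was 1.44 times and that at ZT12 1.41 times the ZT0 mean. The log2 changes were 0.44 ± 0.26 for ZT2 against ZT0 (SE; limma adjusted p = 0.494) and 0.40 ± 0.26 for ZT12 against ZT0 (SE; limma adjusted p = 0.538). The recovered length of 3455 nucleotides is not a multiple of 3, and the RefSeq table places 2 long noncoding RNAs over the gene. Its RPKM level, and so its place in the order of members, rests on that length, whereas its folds between times do not.

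Gtpbp2 had the largest estimated log2 change of the tested members. At ZT0 it measured 1.65 and 2.14 RPKM, at ZT2 2.99 and 4.78, and at ZT12 4.85 and 3.93, from 24 to 131 reads per library. Both ZT0 libraries were below the other 4, and the ZT2 and ZT12 pairs overlapped. At ZT12 the mean was 2.32 times that at ZT0, a log2 change of 0.90 ± 0.31 (SE; 95% interval 0.16 to 1.63; limma adjusted p = 0.258, unadjusted p = 0.0230). At ZT2 the mean was 2.05 times that at ZT0, a log2 change of 0.73 ± 0.31 (SE; limma adjusted p = 0.365, unadjusted p = 0.0495), with 0.47 without ZT2 replicate 2. The moderated F test over the 3 times gave an unadjusted p of 0.0493 and a limma adjusted p of 0.267. The lowest adjusted p for ZT12 against ZT0 under any setting was 0.0868, with limma array weights, which gave the ZT0 libraries a weight of 2.09 and the ZT2 libraries 0.473.

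Nemf and Ltn1 act on the nascent chain. NEMF binds the large subunit that still carries an unfinished chain, adds a short alanine-rich tail in mammals and recruits Listerin, the ubiquitin ligase encoded by Ltn1. At ZT0 Nemf stood at 20.5 and 15.6 RPKM, at ZT2 18.4 and 22.4, and at ZT12 21.5 and 31.2. Both ZT12 libraries were above both ZT0 libraries, and the ZT2 pair overlapped with each. The mean at ZT12 was 1.46 times that at ZT0, a log2 change of 0.51 ± 0.27 (SE; limma adjusted p = 0.435, unadjusted p = 0.0955). It was 0.25 without ZT12 replicate 2 and 0.77 without ZT12 replicate 1. Its replicates differed beyond counting error at all 3 times, with ratios of replicate 2 to replicate 1 of 0.760, 1.21 and 1.45.

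At ZT0 Ltn1 measured 8.43 and 6.58 RPKM, at ZT2 5.53 and 6.39, and at ZT12 8.25 and 9.92. The ZT2 pair was its lowest and lay below all 4 other libraries. The mean at ZT12 was 1.52 times that at ZT2, a log2 change of 0.53 ± 0.26 (SE; limma adjusted p = 0.323, unadjusted p = 0.0823). For ZT2 against ZT0 the log2 change was -0.28 ± 0.26 (SE; limma adjusted p = 0.664). It was -0.13 without ZT0 replicate 1 and -0.44 without ZT0 replicate 2.

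The spread between replicates was often wider than counting error. The 95% counting interval of the ratio of replicate 2 to replicate 1 excluded 1 in 12 of 30 pairs of libraries and genes. These were 2 of 10 at ZT0, 5 of 10 at ZT2 and 5 of 10 at ZT12. The share over all genes was not computed, so these counts say nothing particular to the members. The interval narrows with more reads, so the counts do not rank the spread of the times. At both ZT2 and ZT12, Gcn1, Ascc3, Nemf and Ltn1 were higher in replicate 2, whereas Zfp598, Edf1, Pelo and Hbs1l were lower in it. Of these, Zfp598, Pelo and Hbs1l were within counting error at both times, and Ltn1 was at ZT2. Over all tested genes, the deviations of same-numbered libraries from their group means at ZT2 and ZT12 correlated at 0.0184.

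**Figure D4:**
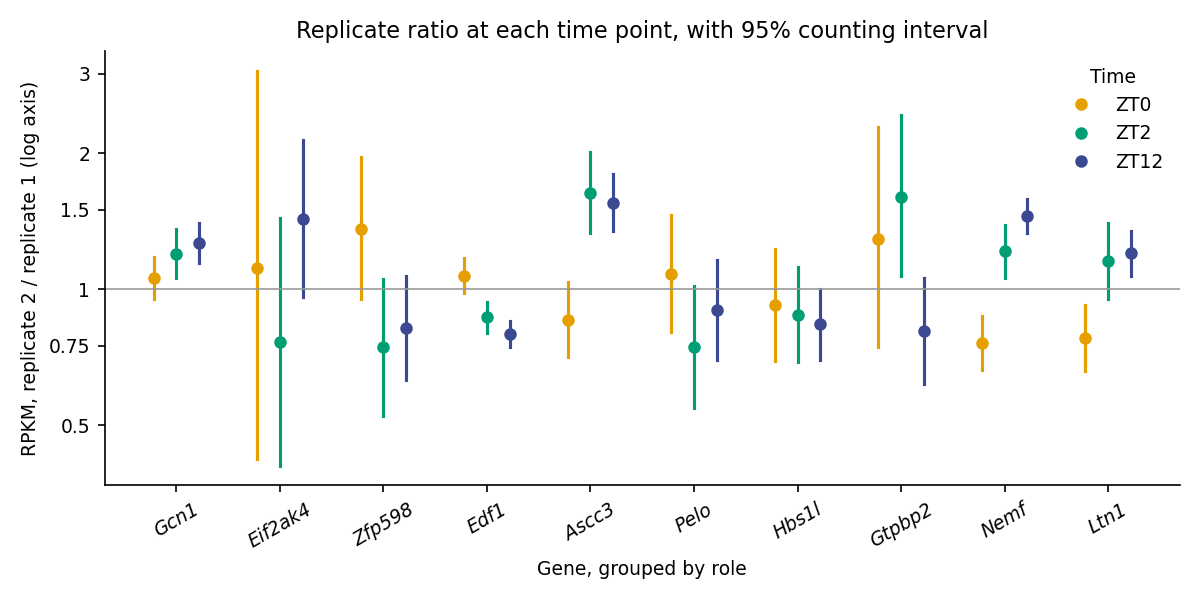
Ratio of replicate 2 to replicate 1 (RPKM, log axis) for each of the 10 factors at ZT0, ZT2 and ZT12, with 95% intervals that cover counting error only. The interval excludes 1 in 12 of the 30 pairs, and Ascc3 has the widest departure, 1.63 at ZT2.

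Because some of the factors act as partners, their levels were also set against each other within each library, where the scaling between libraries cancels. Each ratio is of RPKM values and is given as a description, with no test. How often the ratios of other gene pairs part between times was not computed. For single genes, 3839 to 4545 of the 8355 tested did not overlap between 2 times, in either direction. No overlap among all times is a stricter condition, and its share was not computed. The ratio of Gcn1 to Eif2ak4 came to 36.5 and 34.6 in the ZT0 libraries, 9.41 and 14.7 in the ZT2 libraries, and 7.92 and 7.01 in the ZT12 libraries. The times did not overlap. For ZT0 this follows from the single genes, because both ZT0 libraries were the highest for Gcn1 and the lowest for Eif2ak4. The 95% interval for ZT0 replicate 1, where Eif2ak4 had 9 reads, was 19.1 to 80.3 and covers counting error only, which replicates often exceeded. Pelo over Hbs1l came to 2.52 and 2.96 in the ZT0 libraries, 1.99 and 1.69 in the ZT2 libraries, and 1.48 and 1.59 in the ZT12 libraries, again without overlap between times. Pelo over Gtpbp2 came to 6.39 and 5.35 in the ZT0 libraries, 4.13 and 1.93 in the ZT2 libraries, and 1.88 and 2.09 in the ZT12 libraries. Here the ZT0 libraries were above the rest, and the ZT2 and ZT12 pairs overlapped. Nemf over Ltn1 came to 2.44 and 2.37 in the ZT0 libraries, 3.33 and 3.50 in the ZT2 libraries, and 2.60 and 3.15 in the ZT12 libraries, with the ZT2 pair above the other libraries. In all 6 libraries Nemf exceeded Ltn1, Pelo exceeded both Hbs1l and Gtpbp2, and Gcn1 exceeded Eif2ak4. That Pelo exceeded Hbs1l rests on the recovered Hbs1l length of 3455 nucleotides, which is not a multiple of 3. A shorter length would lower this ratio in every library alike.

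**Figure D5:**
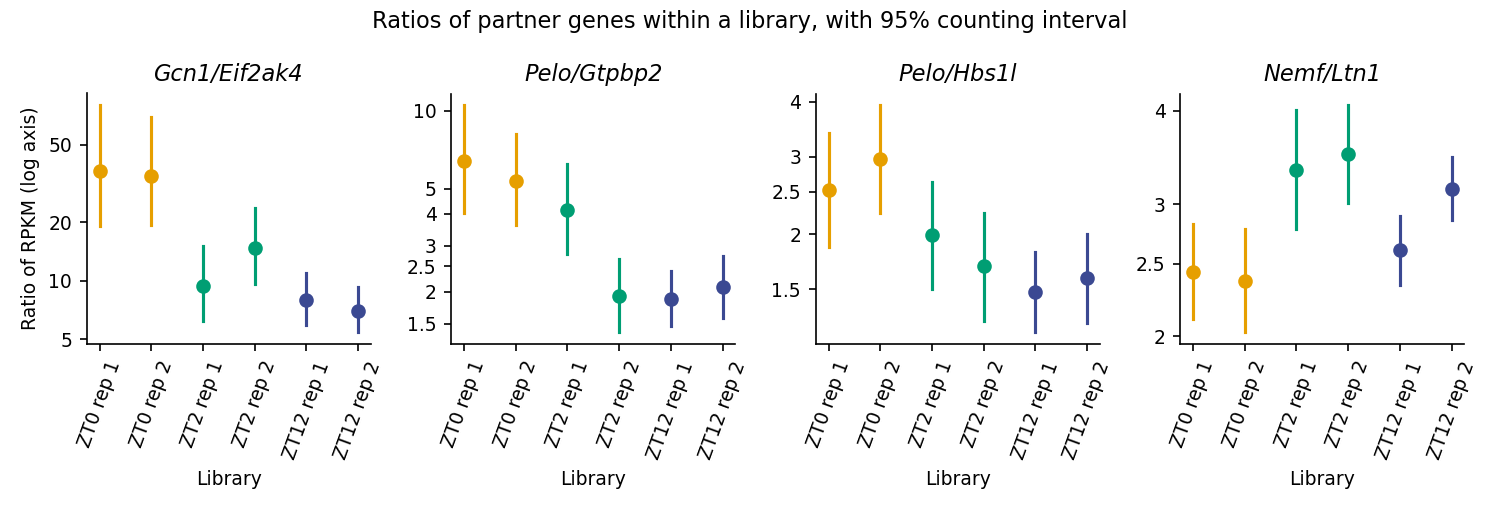
Within-library ratios of RPKM (log axes) for Gcn1 to Eif2ak4, Pelo to Hbs1l, Pelo to Gtpbp2 and Nemf to Ltn1 at ZT0, ZT2 and ZT12, with a point for each library and 95% intervals that cover counting error only. Gcn1 to Eif2ak4 stands at 36.5 and 34.6 at ZT0 and between 7.01 and 14.7 in the other 4 libraries.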

How the data were processed

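The authors deposited 1 table of RPKM values per library, holding identifiers alone. The tools edgeR, StringTie, STAR, Bowtie2 2.3.0, cutadapt and CASAVA 1.82 are named per the submitters' processing notes, as are the builds mm10 and GRCm38.p2. What each did, which annotation served and whether strand was used is not given in the sources used here. Per the labels' protocols, RNase I (650 U, 45 min) digested the lysates, size exclusion collected the ribosomes, and ribosomal RNA was depleted.

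Whole reads were recovered from the steps of the deposited RPKM, directly for 8901 genes (99.6%, relative tolerance 2e-12) and through their length for the other 40. RPKM had been scaled to 1.00 to 1.01 times the upper quartile of reads, and 95.2% of recovered lengths were multiples of 3, so they were read as coding lengths. Recovered reads gave depth, exact Poisson intervals and the voom alternative.

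limma 3.58.1 (R 4.3.3) was fitted to log2(RPKM + 1) of all 6 libraries, with a mean per time point, a variance trend, a filter at a mean of 1 RPKM, 3 residual degrees of freedom and a threshold of 0.05 after Benjamini-Hochberg adjustment over all tested genes. Changes of genes with low levels are understated on this scale. Folds in the text are ratios of mean RPKM. P-values cover the spread between libraries of a time, which were taken as separate pools of mice. The labels give both libraries of a time the same title and tell them apart by replicate number. Eif2ak4 lies under the filter and was read from the fit with no filter, a choice made after seeing its level. Python 3.11.15 did the rest.

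All 10 members were named by rule, and for Gcn1 and Pelo the genes most alike in pattern (the first 2 of 3 are printed). The members and lists were chosen with earlier results of these data known. The pathway and cell type lists could not be matched, because 0 of 49997 genes of the RefSeq table carry an Ensembl identifier, and were not tested. Promoters come from RefSeq and were matched by symbol. The alternatives were the pseudocount, filter, scaling, variance prior, libraries in the fit, replicate number as a block, threshold, voom, array weights and leaving out each library.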

Additional observations from a re-analysis of the deposited data

How the results depend on the processing

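No member passed the threshold under any alternative, and the lowest adjusted p was 0.0868. Of 585 recomputed log2 changes of the members, 285 equal the reported value by construction, because the setting alters only the variance, the filter, the threshold or a library of the time not compared. Of the other 300, 27 turned sign, in 12 of the 30 changes, none of which was over 0.18 in size. Leaving out 1 library moved 21 of the 30 by over 1.5 times. The cause of the turns was not tested. Recovered reads per kilobase gave the same order of members as RPKM in 6 of 6 libraries. That result was fixed in advance, because reads and lengths were recovered from RPKM, so it is no check of the order.

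With libraries scaled to the same total RPKM, the log2 change turned to 0.041 for Zfp598 and 0.10 for Hbs1l for ZT12 against ZT2, and to -0.050 for Ascc3 for ZT2 against ZT0. That scaling put the median change of all genes at -0.11 (ZT2 against ZT0) and 0.17 (ZT12 against ZT2). Quantile normalization gave Ascc3 -0.0074 (ZT12 over ZT0) and -0.033 (ZT12 over ZT2), and Eif2ak4 -0.0196 for ZT12 against ZT2. Ascc3 for ZT12 against ZT2 was -0.0055 with median ratio scaling and -0.00995 with voom on recovered reads.

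Leaving out 1 library at a time gave Zfp598 -0.034 to 0.31 at ZT2 over ZT0, -0.12 to 0.22 at ZT12 over ZT0 and -0.25 to 0.081 at ZT12 over ZT2. The same gave Ascc3 -0.27 to 0.31, -0.23 to 0.29 and -0.28 to 0.30 in that order of comparisons. It gave Pelo -0.23 to 0.15 and Nemf -0.016 to 0.36 for ZT2 against ZT0, Edf1 -0.061 to 0.27 for ZT12 against ZT0, and Hbs1l -0.14 to 0.074 and Gtpbp2 -0.11 to 0.43 for ZT12 against ZT2. A lone library was taken to vary like the other groups.

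The number of all genes called was 2 at ZT2 over ZT0, 79 at ZT12 over ZT0, 172 at ZT12 over ZT2 and 105 by the F test. In that order it was 1, 32, 80 and 34 with no variance trend, 8, 179, 423 and 305 at a threshold of 0.1, and 9, 283, 356 and 350 with voom. With only the 4 libraries compared the 3 pairwise counts were 1, 282 and 39, and the F test, which needs all 3 times, has none. Array weights gave 414 at ZT12 over ZT0, 57 at ZT12 over ZT2 and 211 by the F test. A pseudocount of 0.1 gave 6 for ZT2 against ZT0, and a filter at 5 RPKM gave 124 for ZT12 against ZT0. Leaving out 1 library gave 0 to 248, 3 to 283, 5 to 597 and 5 to 612. The highest of each came without ZT2 replicate 1. The lowest came without either ZT0 library, without ZT0 replicate 2, and, for the last pair of counts, without ZT12 replicate 2. Blocking on replicate number gave 2, 51, 113 and 76 calls, and no member was called. Libraries with the same number deviated from their group means with correlations of -0.0756, -0.0186 and 0.0184, so they were not taken as pairs.

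With 2 libraries per time, even the interval of Edf1 for ZT2 against ZT0, from 0.05 to 0.89 in log2 change, is wide. Depth limits Eif2ak4 (9 to 62 reads) and Gtpbp2 (24 to 131 reads) most.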
